A study of Mus musculus with 11 samples.

Results

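The large cluster of replication-dependent histone genes on mouse chromosome 13 was described through every enriched stretch and every region of the authors' comparison tables that touched chr13:21700000-22150000 (window 1, 450 kb) or chr13:23500000-23900000 (window 2, 400 kb), in the mm9 genome build and by at least 1 bp. For H3K4me3, 70 of 29888 islands of embryonic stem cells (mES), 49 of 21312 islands of neonatal cardiomyocytes and 53 of 23957 islands of adult cardiomyocytes were members. For H3K79me2, the members were 2 of 24554, 1 of 17899 and 14 of 60601 islands. The 12 comparison tables share 1 set of 19265 regions that do not overlap, and 47 of them lay in the windows, 26 in window 1 and 21 in window 2. The members were taken by position within these windows.

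Replication-dependent histone genes encode the core histones H2A, H2B, H3 and H4 and the linker histone H1 that package newly copied DNA. They have no introns, their messages end in a stem-loop instead of a poly(A) tail, and they are transcribed mainly in S phase, in a nuclear body that gathers around the cluster. Cardiomyocytes of newborn mice still make DNA for a short time after birth, whereas adult cardiomyocytes rarely enter S phase and embryonic stem cells cycle fast. H3K4me3 marks promoters that are active or poised, H3K79me2 is laid down by Dot1l over the start of transcribed gene bodies, H3K27me3 is the Polycomb mark of silent genes and H3K9me3 marks heterochromatin.

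Chromatin of cardiomyocytes from mice of 1 day (neonatal) and from the left ventricle of mice of 2 months (adult) was precipitated with an antibody to each of the 4 marks and sequenced, with 1 library per mark and stage, 8 in all, and 3 input libraries, of which 1 is named for neonatal H3K4me3 alone. Left ventricle is given as the source of the adult cells and no heart region for the neonatal ones, so region and age differ together. The labels name no strain, genotype or treatment, and say that the cells were isolated by enzymatic digestion and purified; whether animals were pooled is not stated. The authors set both stages beside mES lists made from public data, which are no samples of this series. The cell type was not checked here, because marker genes could not be placed without an mm9 annotation. With 1 library per group there is no replicate check anywhere below, and every interval covers counting error only. Reads in the stage table rows summed to 461190 for neonatal and 1296817 for adult H3K4me3, and to between 495075 and 1909214 for each library of the other marks.

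RefSeq's gene order on GRCm38.p6 shows what the cluster holds. It lists 54 histone genes in 2 groups, 24 and 30 in chromosome order, of which 52 are protein-coding and 2 are pseudogenes. By family these are 6 H1, 14 H2A, 14 H2B, 9 H3 and 11 H4 genes. Between the groups lie 75 Vmn1r genes, which encode vomeronasal receptors and of which 36 are protein-coding. Islands were not assigned to single genes, since the islands are in mm9 and the annotation is not. Whether an island or region of the windows lies at a histone gene or at another gene was therefore not determined.

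The promoters of the cluster carry short elements that differ between the histone families. Promoters of 4 genes are shown here because H3K4me3, the mark with the highest island coverage of the windows, marks promoters in general. Whether the islands of the windows lie at these promoters was not tested. Each line gives 170 bases before the transcription start, 5′ to 3′ on the gene's strand, from RefSeq and GRCm38.p6. The positions of these lines are in GRCm38.p6 and cannot be set beside the mm9 positions in the rest of the text. Capitals mark, on either strand, CCAAT (the CCAAT box, bound by NF-Y), TATAAA (the TATA box), AAACACA (the H1 element), ATTTGCAT (the octamer bound by Oct-1, known from human H2B genes) and GGTCC (part of the H4 element bound by HINFP). In each line only the elements named at its start are capitalised.
H1f5, linker histone H1, chr13:21780626-21780795, minus strand, H1 element, CCAAT box and TATA box: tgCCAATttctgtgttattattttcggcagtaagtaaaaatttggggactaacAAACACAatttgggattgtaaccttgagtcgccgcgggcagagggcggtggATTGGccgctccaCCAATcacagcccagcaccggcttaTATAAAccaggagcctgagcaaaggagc
H2bc14, H2B, chr13:21721874-21722043, plus strand, octamer and CCAAT box: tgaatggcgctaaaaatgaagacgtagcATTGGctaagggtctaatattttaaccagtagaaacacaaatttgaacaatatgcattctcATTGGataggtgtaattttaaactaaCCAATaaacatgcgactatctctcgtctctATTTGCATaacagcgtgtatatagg
H3c10, H3, chr13:21717458-21717627, plus strand, CCAAT box and TATA box: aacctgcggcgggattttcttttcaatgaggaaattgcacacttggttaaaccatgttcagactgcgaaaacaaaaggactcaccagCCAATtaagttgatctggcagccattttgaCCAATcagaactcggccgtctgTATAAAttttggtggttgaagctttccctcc
H4c12, H4, chr13:21750554-21750723, minus strand, H4 element and TATA box: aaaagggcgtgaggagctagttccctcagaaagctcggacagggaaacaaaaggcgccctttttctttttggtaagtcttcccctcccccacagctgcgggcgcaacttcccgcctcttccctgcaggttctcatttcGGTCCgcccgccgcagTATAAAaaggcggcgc

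RefSeq's promoter table gave 50 windows of 300 bases (250 before to 50 after the start) for 49 of the genes, and the elements were searched in them on both strands; no element contains another. CCAAT was found in 84% of the histone windows and in 37.4% of all 32851 windows of the table. It was in every H1, H2A, H2B and H3 window but in only 3 of 11 H4 windows. TATAAA was found in 58% of the histone windows against 13.6% of all. ATTTGCAT was found in 5 of 14 H2B and 4 of 12 H2A windows and in none of the H1, H3 and H4 windows, against 1.74% of all windows. AAACACA was in 5 of 6 H1 windows against 7.18% of all, and GGTCC in 10 of 11 H4 windows against 45.5% of all. The median GC content was 45.2% in the histone windows and 52.7% in all. The elements were chosen after the promoters were looked at, and a match is a run of letters, not a bound site. The windows of H2bc23 and of the gene RefSeq spells H4bc24, an H2B gene by its older name Hist1h2br, were identical over all 300 bases, so short reads there cannot be told apart.

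H3K4me3 covered the histone windows densely in all 3 cell populations. SICER islands covered 22.9% of the window bases in mES, 18.9% in neonatal and 15.7% in adult cells, against 2.72%, 2.18% and 2.14% of chromosomes 1 to 19, X and Y. The windows thus held 8.41, 8.69 and 7.36 times the average coverage. In the 1349 kb of chromosome 13 between the windows the coverage was 1.63%, 1.42% and 0.341%. Islands stood 8.24, 5.76 and 6.24 per 100 kb in the windows and 1.13, 0.807 and 0.907 per 100 kb over all chromosomes. With MACS regions, which are narrower, the coverage was 9.87%, 5.42% and 0.209%. The MACS coverage was 9.79, 10.2 and 5.90 times the MACS average in mES, neonatal and adult cells.

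**Figure D1:**
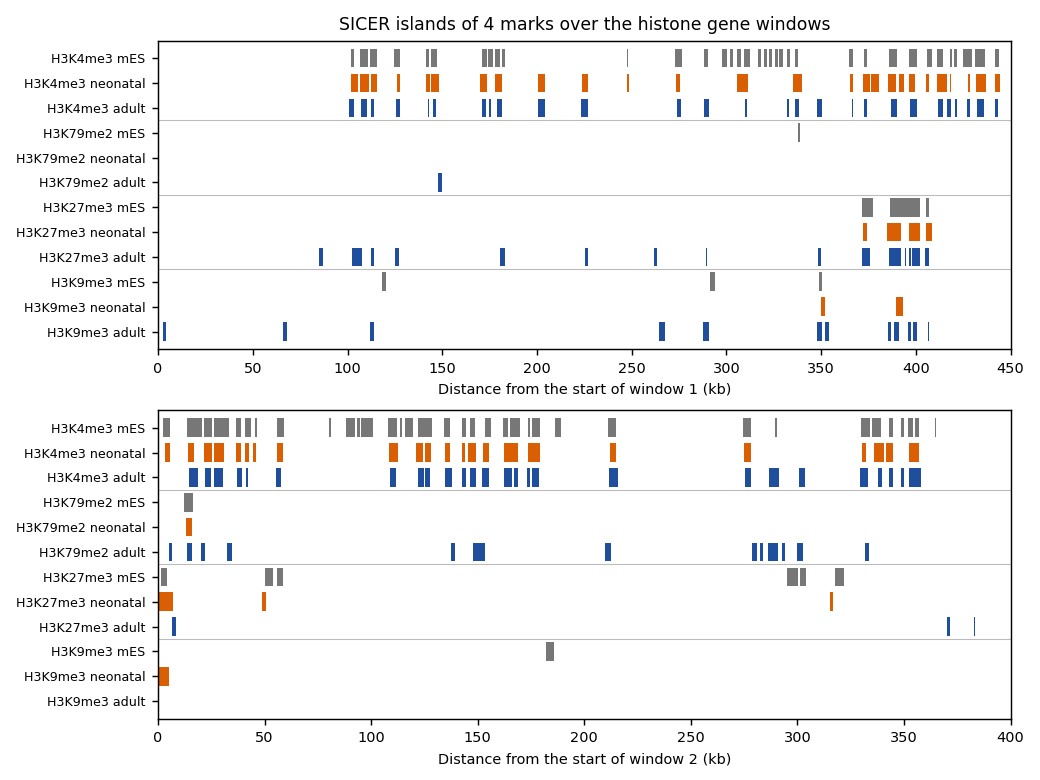
SICER islands of each mark (rows) in mES (grey), neonatal (orange) and adult (blue) cells, drawn against the distance in kb from the start of window 1 (top) and window 2 (bottom), 1 library per row. H3K4me3 islands recur along both windows in all 3 populations, with gaps such as the start of window 1, whereas H3K79me2 has 2 islands in mES, 1 in neonatal and 14 in adult cells.

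**Figure D2:**
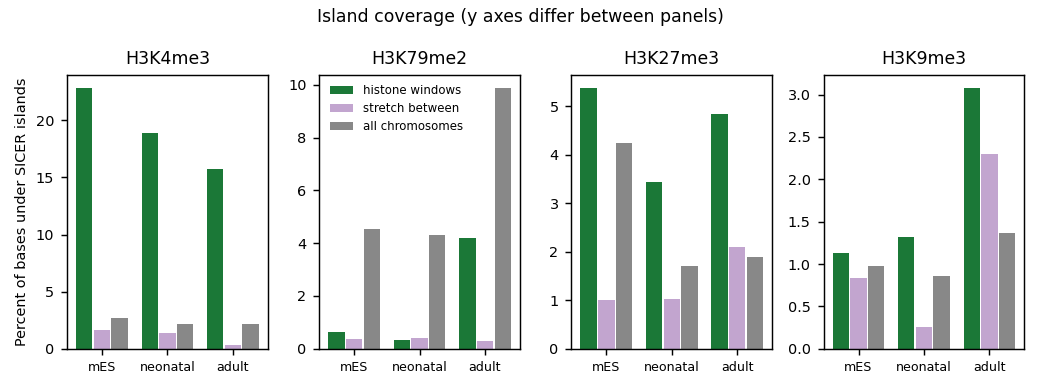
Percent of bases under SICER islands in the histone windows (green), the stretch between them (violet) and all chromosomes (grey), for each mark and population, with a separate y axis per mark. H3K4me3 coverage of the windows (22.9%, 18.9% and 15.7%) stands far above the other bars of its panel, and H3K79me2 SICER coverage over both windows stays below the all-chromosome bar in every population.

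Most H3K4me3 sites of the cluster were shared. Merging the 3 lists gave 72 H3K4me3 sites in the windows, and 40 of them (55.6%) held an island in mES, neonatal and adult cells, against 24.5% of 44766 sites over all chromosomes. Another 16 (22.2%) were found in mES alone, against 32.3% over all chromosomes. In neonatal cells alone there were 2 (2.78%) and in adult cells alone 2 (2.78%), against 12.4% and 17.7%. A further 4 (5.56%) were in mES and neonatal and 6 (8.33%) in mES and adult cells, against 4.03% and 4.61%. The last 2 (2.78%) were in both cardiomyocyte stages but not in mES, against 4.38%. Of the 49 neonatal islands, 43 (87.8%, 95% Wilson interval 75.8 to 94.3%) overlapped an adult island, against 64.0% over all chromosomes. That share was 69.4% when at least 50% of the neonatal island had to be covered, and with MACS only 7 of 42 neonatal regions (16.7%) overlapped an adult region. The adult MACS regions of the windows numbered 11 with a median width of 130 bp.

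At the 40 shared sites the covered width had a median of 3400 bp in mES, 3400 bp in neonatal cells and 2500 bp in the adult. The adult island was narrower than the neonatal at 28 sites (70%, 54.6 to 81.9%), wider at 11 and equal at 1. Over all chromosomes the medians at 10973 shared sites were 2800, 2600 and 2400 bp, and the adult was narrower at 57.7%, a share within that interval. The widest islands in the windows were chr13:23526200-23533199 in mES (7000 bp), chr13:23662200-23668799 in neonatal (6600 bp) and chr13:23852400-23857799 in adult cells (5400 bp), each of which overlapped an island in both other lists. Next in width were chr13:23513800-23520399 (6600 bp) and chr13:23622200-23628599 (6400 bp) in mES, and chr13:22005400-22011399 (6000 bp) and chr13:23673400-23679199 (5800 bp) in neonatal cells. In the adult, chr13:23514400-23518799, chr13:23526200-23530599 and chr13:23786800-23791199 were all 4400 bp wide, and the last of these had no neonatal counterpart.

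H3K4me3 reads at the cluster were higher in the neonatal than in the adult library. The stage table lists regions that differed at a DiffBind FDR below 0.01 between the 2 libraries, and 22 of the 47 regions (46.8%, Wilson interval 33.3 to 60.8%) were listed as higher in neonatal cells, where the background was 24.6% of all regions. Only 2 (4.26%, 1.17 to 14.2%) were listed as higher in adult cells, against 29.4%. Window 1 held 14 of the 22 and window 2 held 8. Among regions with an H3K4me3 island at both stages, 19 of 38 (50%) were higher in neonatal cells against 30.9%, and 1 of 38 was higher in adult cells against 22.6%. The FDR compares these libraries, not the stages, and neighbouring regions are not independent. In bulk chromatin, fewer cells with a mark and less of the mark per cell cannot be told apart.

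The ratio of normalised reads, neonatal over adult, ran from 1.51 to 6.06 over the 22 regions with a median of 1.99, and 21 of the 22 counting intervals lay above 1. The median over all 4736 regions listed as higher in neonatal cells was 2.12. Reads of both stages were available at 32 of the 47 regions, also from the mES tables. The neonatal value was the higher one at 27 of them (84.4%, 68.2 to 93.1%), against 46.7% of 14084 regions over all chromosomes. Of these 27, 1 region, chr13:22025561-22027115, was at the floor in both libraries, so the scaling alone set its direction. Summed over the 32 regions, 1401 neonatal and 1491 adult reads gave 1818 and 1149 normalised reads, a ratio of 1.58 (exact interval 1.47 to 1.70). The ratio was 1.93 (1.73 to 2.15) in window 1 and 1.34 (1.21 to 1.48) in window 2. Over all 14084 regions it was 0.654 on the same scale.

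**Figure D3:**
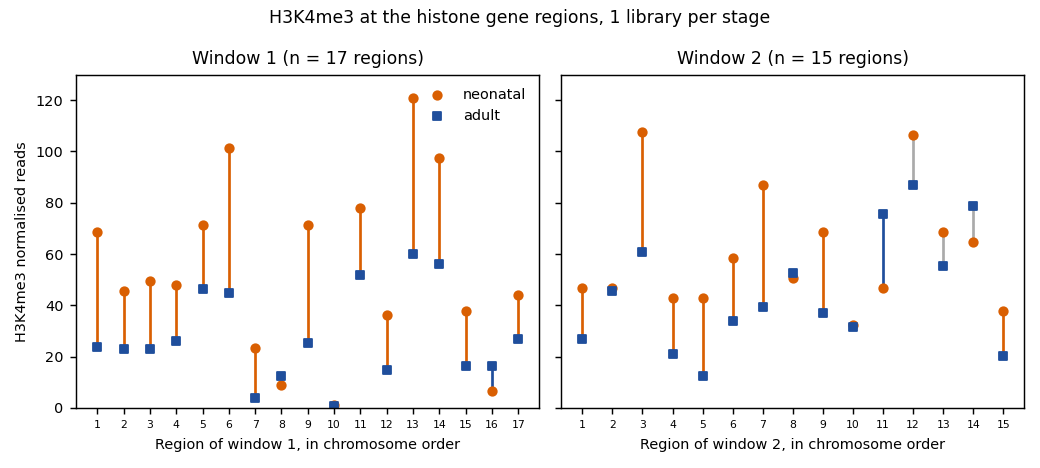
H3K4me3 normalised reads (y axis) of the neonatal (orange circles) and adult (blue squares) library at the regions of window 1 (left, 17 regions) and window 2 (right, 15 regions) with reads of both stages, in chromosome order (x axis). Line colour gives the authors' call, orange for higher in neonatal, blue for higher in adult and grey for no call. The neonatal point is above at 27 of the 32 regions, at 1 of which both libraries are at the floor.

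The regions with the largest neonatal excess came from both windows. At chr13:21947367-21948273, a narrow region of window 1, there were 18 neonatal and 5 adult reads, or 23.4 and 3.85 normalised reads, and the neonatal value was 6.06-fold higher (2.17 to 20.9). At chr13:23544400-23546161 there were 33 and 16 reads, or 42.8 and 12.3 normalised reads, a ratio of 3.47 (1.86 to 6.76). Both held a neonatal H3K4me3 island and no adult one, while each of the 8 regions that follow held an island at both stages.

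Near the start of the occupied part of window 1, chr13:21801790-21805399 had 53 and 31 reads, or 68.8 and 23.9 normalised reads, and a ratio of 2.88 (1.81 to 4.64). The wide neonatal island of window 1 fell in chr13:22005375-22012495, where 55 and 33 reads gave 71.4 and 25.4 normalised reads and a ratio of 2.81 (1.79 to 4.46). At chr13:22065000-22067300 there were 28 and 19 reads, or 36.3 and 14.6 normalised reads. The ratio there was 2.48 (1.34 to 4.70). The neonatal library was the higher one in all of these, before normalisation as well as after it. In the authors' scaling 1 neonatal read counts as 1.30 and 1 adult read as 0.771 normalised reads.

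The remaining regions among the 10 largest differed by a little over 2-fold. At chr13:22117757-22118999 there were 29 and 21 reads (37.6 and 16.2 normalised), a ratio of 2.32 (1.28 to 4.29). At chr13:21923287-21927199, the region with the most neonatal signal of these, 78 and 58 reads gave 101.2 and 44.7 normalised reads and a ratio of 2.26 (1.59 to 3.24). At chr13:23607800-23612399 there were 67 and 51 reads (86.9 and 39.3 normalised), a ratio of 2.21 (1.51 to 3.25). All of these counting intervals stayed above 1. The last of them, chr13:21841200-21843399 with 38 and 30 reads and chr13:23540600-23543399 with 33 and 27 reads, had ratios of 2.13 (1.29 to 3.56) and 2.06 (1.2 to 3.56).

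The regions higher in the adult were few. At chr13:22120288-22122152 there were 5 neonatal and 21 adult reads, or 6.49 and 16.2 normalised reads, and the adult value was 2.50-fold higher with an interval of 0.916 to 8.47 that spans 1. This region held an adult and no neonatal H3K4me3 island. At chr13:23662200-23669869, which holds the widest neonatal island, 36 and 98 reads gave 46.7 and 75.5 normalised reads, and the adult value was 1.62-fold higher (1.09 to 2.44). The 8 regions with reads of both stages and no call included chr13:23634000-23637799, where 39 and 68 reads gave 50.6 and 52.4 normalised reads.

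H3K79me2, the mark of early gene bodies, had few SICER islands in the cluster in mES and neonatal cells, and in the adult nearly all of them lay in window 2. Islands covered 0.635% of the window bases in mES, 0.329% in neonatal and 4.19% in adult cells, against 4.53%, 4.32% and 9.89% of all chromosomes. The windows thus held 0.140, 0.0763 and 0.423 times the average coverage. In the adult the coverage was 0.489% of window 1 and 8.35% of window 2. Of the H3K4me3 islands in the windows, 2 of 70 in mES (2.86%, Wilson interval 0.787 to 9.83%) overlapped an H3K79me2 island, 1 of 49 in neonatal cells (2.04%, 0.361 to 10.7%) and 9 of 53 in adult cells (17%, 9.20 to 29.2%). Over all chromosomes the shares were 45.0%, 36.2% and 54.3%, above the interval of the windows in each population. Neighbouring islands share a library, so these intervals are narrower than the true uncertainty.

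A site near the start of window 2 was the only one with an H3K79me2 island in all 3 lists. It was chr13:23512200-23516199 in mES (4000 bp), chr13:23513000-23515799 in neonatal cells (2800 bp) and chr13:23513400-23515999 in adult cells (2600 bp), and an H3K4me3 island overlapped it each time. The region around it, chr13:23512200-23520399, held 37 neonatal and 66 adult H3K79me2 reads, or 52.3 and 46.7 normalised reads, a neonatal-over-adult ratio of 1.12 (0.728 to 1.70). Its H3K4me3 reads, 36 and 59, gave 46.7 and 45.5 normalised reads, a ratio of 1.03 (0.659 to 1.58). Neither difference was larger than the counting error. The other mES island, chr13:22037600-22038999 (1400 bp), had no cardiomyocyte counterpart.

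The other 13 adult H3K79me2 islands had no counterpart in the neonatal or the mES list. The share with a counterpart was 1 of 14 (7.14%, 1.27 to 31.5%) for each list. Over all chromosomes, 33.6% of adult H3K79me2 islands overlapped a neonatal island and 34.1% a mES island, both slightly above that interval. Most adult islands therefore lacked a neonatal counterpart, and most a mES counterpart, outside the cluster as well. Of the 14 adult islands 1 lay in window 1 and 13 in window 2. The widest were chr13:23647800-23653599 (5800 bp) and chr13:23786400-23790799 (4400 bp), followed by chr13:23709600-23712399 and chr13:23800000-23802799 (2800 bp each). Of the 14, 8 (57.1%, 32.6 to 78.6%) overlapped an adult H3K4me3 island, against 21.1% of all adult H3K79me2 islands. Another 5 lay within 3000 bp of one, a count that was not made over all chromosomes. Adult H3K4me3 islands were also denser in the windows than elsewhere. They were weak islands of a long list: their median score stood at the 34.9th percentile of the adult list, whose 60601 islands compare with 17899 in the neonatal list. When the lists were cut to equal numbers of top islands, adult H3K79me2 coverage of the windows was 0% and neonatal coverage stayed at 0.329%. With MACS regions it was 0.284% in mES, 0% in neonatal and 0.0120% in adult cells, or 0.211, 0 and 1.02 times the MACS average. The adult value rests on 1 region of 102 bp.

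In reads, H3K79me2 was higher in the adult at many regions of the cluster. The stage table listed 22 of the 47 regions (46.8%, 33.3 to 60.8%) as higher in adult cells, where the background was 35.4%, a share within that interval. It listed 1 region (2.13%, 0.377 to 11.1%) as higher in neonatal cells, against 30.2%. Among the regions with H3K4me3 islands at both stages, the adult was higher at 21 of 38 (55.3%), against 34.3%. Neonatal reads stood at the table's floor of 1 read in 21 of the 22, so their folds depend on what a floor value stands for. How control reads entered is not stated, so a floor value, or any other recovered value, may not be a plain read count. An adult H3K79me2 island was present at 6 of the 22 and no island at either stage at 16.

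Values of the 10 regions with the largest deposited fold were low in both libraries. The adult library held 43 H3K79me2 reads at chr13:23673121-23679199, 41 at chr13:23662200-23669869, 38 at chr13:23620800-23629090 and 38 at chr13:23499000-23508399, which crosses the edge of window 2. The neonatal library was at the floor in all of these, and the adult was at least 7.17-fold, 6.84-fold, 6.34-fold and 6.34-fold higher, with the floor taken as 3 reads. At chr13:23851800-23857799 and chr13:23774600-23778399 there were 27 adult reads each, and the adult was at least 4.50-fold higher. At chr13:23711200-23715599, chr13:23652200-23655301 and chr13:21844200-21848399 there were 25, 24 and 21 adult reads, and the adult was at least 4.17-fold, 4.00-fold and 3.5-fold higher. The neonatal library was above the floor only at chr13:23835000-23840599, with 2 reads against 47 in the adult, a ratio of 11.8 (3.08 to 99.9).

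Beside these, other regions with H3K79me2 reads showed smaller or opposite differences. The neighbouring region chr13:23829200-23834199 held 16 neonatal and 53 adult reads, or 22.6 and 37.5 normalised reads, an adult-over-neonatal ratio of 1.66 (0.933 to 3.11) without a call in the stage table. The region higher in neonatal cells, chr13:22027690-22029999, held 5 neonatal reads against the adult floor and no H3K79me2 island at either stage, and was at least 3.33-fold higher.

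Adult islands of the repressive marks lay mostly in window 1, while the mES and neonatal islands were few in both windows. H3K27me3 islands covered 5.39% of the window bases in mES, 3.44% in neonatal and 4.85% in adult cells, against 4.25%, 1.70% and 1.90% of all chromosomes. They numbered 9, 7 and 19, and 16 of the adult islands lay in window 1. The widest were chr13:22086200-22102399 in mES (16200 bp), chr13:23499000-23507199 in neonatal (8200 bp) and chr13:22085800-22092199 in adult cells (6400 bp). H3K4me3 islands overlapped H3K27me3 at 6 of 70 (8.57%) in mES, 6 of 49 (12.2%) in neonatal and 11 of 53 (20.8%) in adult cells, against 30.3%, 13% and 16.8% over all chromosomes. H3K9me3 islands numbered 4, 3 and 12 and covered 1.13%, 1.32% and 3.08%, against 0.972%, 0.854% and 1.37%, and all 12 adult islands lay in window 1. The widest H3K9me3 islands were chr13:23682200-23685799 in mES (3600 bp), chr13:23499200-23504999 in neonatal (5800 bp) and, at 3000 bp, chr13:21964400-21967399, chr13:22047600-22050599 and chr13:22088400-22091399 in adult cells.

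The stage table of H3K27me3 listed 15 of the 47 regions (31.9%, 20.4 to 46.2%) as higher in adult cells, against a background of 19.8%, and 2 (4.26%) as higher in neonatal cells, against 7.53%. When folds were centred on the median of the whole table, which was -2.91 for neonatal minus adult on the log2 scale, 7 of the 17 rows (41.2%) were higher in neonatal cells in place of 2 (11.8%). The neonatal library was at the floor in 13 of the 15. The largest were chr13:21824600-21828063 with 32 adult reads, chr13:21988137-21990277 with 31, and chr13:21900600-21904405 and chr13:21923287-21927199 with 23 each, at least 6.70-fold, 6.49-fold, 4.81-fold and 4.81-fold above the floor. The neonatal excess was at chr13:22105600-22108599, where 33 and 19 reads gave a ratio of 2.77 (1.53 to 5.15), and at chr13:22084600-22102399, where 155 and 171 reads gave 195.6 and 135.5 normalised reads and a ratio of 1.44 (1.15 to 1.81). This last region spans the widest mES H3K27me3 island of the windows.

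For H3K9me3, 16 of the 47 regions (34.0%, 22.2 to 48.3%) were listed as higher in adult cells, against 24.8%, a share within that interval. Listed as higher in neonatal cells was 1 region (2.13%), against 25.4%. The neonatal library was at the floor in 13 of the 16 and an adult island was present at 2. The largest were chr13:23662200-23669869 with 24 adult reads, chr13:21988137-21990277 with 23, chr13:23841600-23844999 with 19 and chr13:21923287-21927199 with 18, at least 8.79-fold, 8.43-fold, 6.96-fold and 6.60-fold above the floor. The neonatal excess, at chr13:21806600-21810999, rested on 9 neonatal reads against the adult floor.

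In the listed rows H3K4me3 was mostly higher in neonatal cells and the other marks mostly higher in adult cells. The neonatal-higher share of listed rows was 91.7% for H3K4me3, against 45.6% of all rows of its table. It was 4.35% for H3K79me2, 11.8% for H3K27me3 and 5.88% for H3K9me3, against 46.0%, 27.5% and 50.6%. All H3K27me3 rows thus leaned to the adult, and with centred folds the share in the windows was 41.2%. Of the 22 regions with H3K4me3 higher in neonatal cells, 9 were listed with H3K79me2 higher in adult cells. Over all chromosomes the share was 28.8% of the 4736 such regions, and the count of 9 carries no interval here. At least 2 of H3K79me2, H3K27me3 and H3K9me3 were listed as higher in adult cells at 15 of the 47 regions (31.9%, 20.4 to 46.2%). The share over all regions was 20.1%. In the same rows the neonatal library was often at the floor, which moves with the result. For H3K79me2 it was at the floor in 21 of 23 rows (91.3%) of the windows against 31.3% of all rows, for H3K27me3 in 13 of 17 (76.5%) against 59.3%, and for H3K9me3 in 13 of 17 (76.5%) against 24.4%. For H3K4me3 it was at the floor in 0 of 24 rows, against 26.2%. In 17 of the 47 regions the neonatal library was at the floor for at least 2 of H3K79me2, H3K27me3 and H3K9me3. The adult library was so in 0 regions, and the same count over all regions was not made. Reads of both stages were available at 25, 18 and 23 of the 47 regions for these marks, and an unlisted value could not count. Most of the available values came from rows listed as higher in adult cells, so this contrast is not separate from those calls. Over all rows too, the adult library was at the floor less often than the neonatal for H3K79me2 (2.02%) and H3K27me3 (5.39%). For H3K9me3 it was at the floor about as often (24.0%). A separate neonatal input is named for H3K4me3 only; the part of the input in these differences was not tested.

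**Figure D4:**
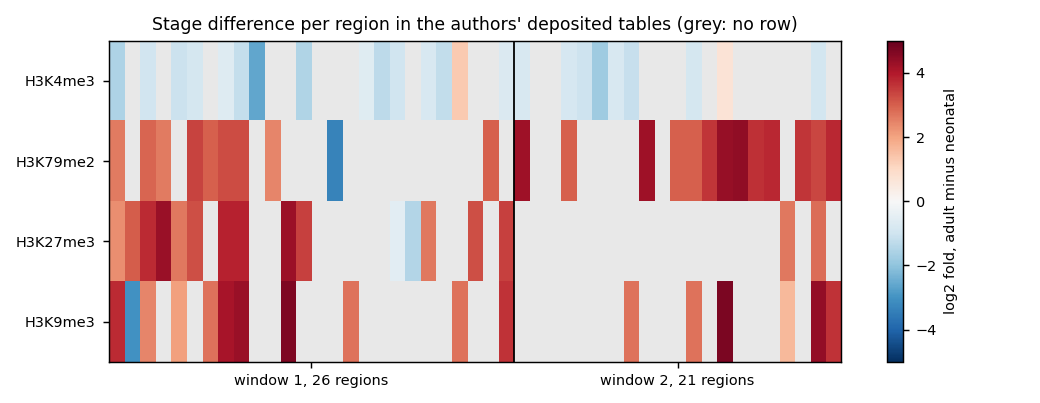
Deposited log2 fold, adult minus neonatal (colour), for each of the 47 regions in chromosome order (columns, window 1 left and window 2 right of the line) and each mark (rows), with grey where the stage table has no row. H3K4me3 is blue, higher in neonatal cells, at 22 of 24 regions, while the other marks are mostly red, and their strongest red cells have the neonatal library at its floor of 1 read.

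Among the regions of the comparison tables, more were listed with lower H3K4me3 in mES than in neonatal cells than the reverse. The island coverage above ran the other way, and of the 16 sites with an island in mES alone only 2 overlapped a table region. In the authors' deposited table of mES against neonatal cells, 23 of the 47 regions (48.9%, 35.3 to 62.8%) were higher in neonatal cells, against a background of 30%, and 6 (12.8%, 5.98 to 25.2%) were higher in mES, against 30.6%. In the deposited table of mES against adult cells, 16 (34.0%, 22.2 to 48.3%) were higher in mES, against 33.7%, and 13 (27.7%, 16.9 to 41.8%) in adult cells, against 33.2%, both near the background. The windows stood apart in the adult comparison: in window 1, 13 regions were higher in mES and 3 in adult cells, while in window 2 they were 3 and 10. Against neonatal cells, 4 regions of window 1 and 2 of window 2 were higher in mES, and 11 and 12 were higher in neonatal cells. These comparisons share the mES library.

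The largest H3K4me3 folds against mES lay at neighbouring regions of window 1. In the authors' deposited tables the log2 fold at chr13:21900600-21904405 was -8.62 for mES minus neonatal and -7.87 for mES minus adult, and at chr13:21923287-21927199 it was -7.13 and -5.83. Neonatal cells held 55 and 78 H3K4me3 reads there and adult cells 60 and 58, and both regions held islands at both stages. They lie in a stretch of 64200 bp, chr13:21883200-21947399, without any mES island of any mark by either caller. The mES reads of H3K4me3 were deposited alignments carried from mm8 to mm9 by the authors, and the part of that step in the gap was not tested. In the adult, these regions also held 19 H3K79me2 reads each, 23 H3K27me3 reads each and 16 and 18 H3K9me3 reads. The neonatal library was at the floor for each of these marks at both regions. The values of the regions were thus nearly alike in these marks, and whether short reads can be told apart between them was not tested.

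In the opposite direction, chr13:22025561-22027115 was at the floor in both cardiomyocyte libraries and held a mES island alone, with deposited-table log2 folds of 3.52 and 4.39 in the authors' deposited tables of mES against neonatal and against adult cells. At chr13:21988137-21990277 the authors' deposited table gave 1.76 for mES minus neonatal. At chr13:22005375-22012495 the authors' deposited table gave 1.68 for mES minus adult, and at chr13:23634000-23637799 it gave -1.68 for mES minus neonatal. Outside the gap, no listed H3K4me3 fold against mES reached 4-fold on the cardiomyocyte side.

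**Figure D5:**
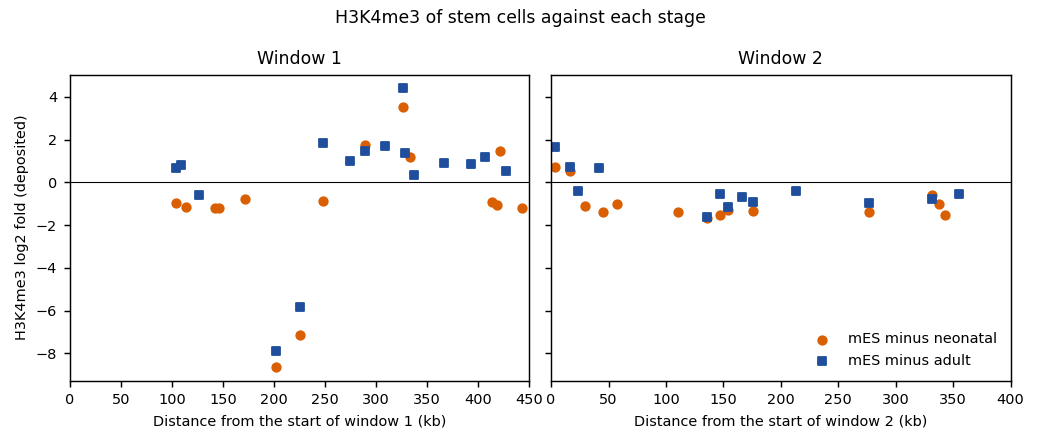
Deposited H3K4me3 log2 fold of mES minus neonatal (orange circles) and mES minus adult cells (blue squares) for each listed region, against the distance in kb from the start of window 1 (left) and window 2 (right). Points below 0 are lower in mES; the lowest, from -8.62 to -5.83, are the neighbouring regions inside the stretch of window 1 without mES islands.

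For H3K79me2, the authors' deposited table of mES against neonatal cells listed only 2 of the 47 regions. Their deposited log2 folds were 1.32 at chr13:23512200-23520399 and -3.94 at chr13:23829200-23834199. Each direction thus held 1 region (2.13%, 0.377 to 11.1%), against backgrounds of 30% higher in mES and 27.1% higher in neonatal cells. The deposited table of mES against adult cells listed 1 region as higher in mES (background 31.5%) and 25 (53.2%, 39.2 to 66.7%) as higher in adult cells, against 40.4%, a share within that interval. In that authors' deposited table chr13:23512200-23520399 was again the region higher in mES, with a log2 fold of 1.46. The regions furthest on the adult side in the authors' deposited table were chr13:23829200-23834199 with -4.69, chr13:23835000-23840599 with -4.52, chr13:23673121-23679199 with -4.39, chr13:23662200-23669869 with -4.32, and chr13:23620800-23629090 and chr13:23499000-23508399 with -4.21 each. They held 38 to 53 adult H3K79me2 reads, and none of them held a mES H3K79me2 island.

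For the repressive marks, most regions listed against adult cells were higher in the adult. The authors' deposited tables of H3K27me3 listed no region as higher in mES (backgrounds 16.4% and 26.2%). They listed 4 regions (8.51%) as higher in neonatal cells, against 15.8%, and 22 (46.8%, 33.3 to 60.8%) as higher in adult cells, against 26.9%. The H3K27me3 SICER coverage of the windows ran otherwise, with 5.39% in mES, 3.44% in neonatal and 4.85% in adult cells. For H3K9me3 the authors' deposited tables listed 5 regions (10.6%) as higher in mES and 8 (17%) as higher in neonatal cells, against 23.7% and 24%. Against adult cells 1 region (2.13%) was higher in mES and 19 (40.4%, 27.6 to 54.7%) were higher in the adult, against 24.6% and 25.8%.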

How the data were processed

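Cardiomyocytes of 2 stages were profiled for 4 histone marks by chromatin immunoprecipitation and sequencing; samples were grouped by their titles. Per the submitters' processing notes, the genome build was mm9 and the tools included Bowtie 0.12.8, DiffBind 1.2.0, MACS 1.4.2 and SICER 1.1. The mES reads of H3K4me3, H3K27me3 and H3K9me3 were moved from mm8 to mm9 by the authors, per the deposited description. The authors deposited SICER islands and MACS regions per library, each with a score that was used only to rank islands within a list. The deposited tables hold log2 normalised reads, a log2 fold and an FDR, a p-value adjusted by DiffBind, and list only rows below 0.01.

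Normalised reads divided by the lowest value of their column were whole numbers to within 0.01 in 100% of the rows, which gave reads per region; the lowest value, taken as 1 read, is the floor of a table. DiffBind was run with default settings, per the deposited description; how control reads entered is not stated there. Read ratios carry exact conditional binomial 95% intervals and shares carry Wilson 95% intervals, which cover counting error only. The intervals of read ratios cover it only if the recovered values are plain read counts, which was not tested. A fold against the floor was computed against 3 reads. It is a lower bound only if a floor value stands for 3 reads or fewer, which was not tested. The 8 mES columns of normalised reads were not used. Coordinates are mm9, 1-based. Total library depths were not given in the sources used here.

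Named regions were those with the largest absolute fold, up to 10 per direction for H3K4me3 and H3K79me2, up to 4 for H3K27me3 and H3K9me3 and up to 5 per stem cell table, and the widest islands, up to 3 per list. Regions of a direction that held 2 or fewer, and regions beside those named, were added after their values were seen. The members and lists were chosen with earlier results of these data known. Alternatives were other callers, score thresholds, list lengths, fold thresholds, centred folds and stricter membership. Python 3.11.15, pandas 2.3.3, scipy 1.17.1 and numpy 2.4.6 were used, and the interval code was tested on simulated data.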

Additional observations from a re-analysis of the deposited data

Results flagged for a closer look

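At 2 of the 14 regions listed in both H3K4me3 stem cell tables, the fold had opposite signs at the stages. At chr13:21801790-21805399 the authors' deposited tables gave a log2 fold of -0.969 for mES minus neonatal and 0.678 for mES minus adult. At chr13:21947367-21948273 the authors' deposited tables gave -0.861 and 1.86. Stem cells thus stood between the stages at both, with the neonatal library highest. Both comparisons share the mES library, each rests on 1 library per stage, and the difference between them was not tested. No region of the other 3 marks had opposite signs, among 2 regions for H3K79me2, 4 for H3K27me3 and 6 for H3K9me3 that were listed in both tables.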

How the results depend on the processing

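No paired analysis was possible because each group holds 1 library. For the same reason no replicate could be left out. Of 83 alternatives over 26 results, 56 stayed within the interval of the reported value, 25 moved out of it and 2 turned a majority. Under MACS, coverage of the windows was 9.87% (mES), 5.42% (neonatal) and 0.209% (adult) for H3K4me3, 0% (neonatal) and 0.0120% (adult) for H3K79me2, 0% (mES), 0.0155% (neonatal) and 0% (adult) for H3K27me3, and 0% (mES), 0% (neonatal) and 0.00765% (adult) for H3K9me3. H3K79me2 coverage with islands at or above the median score was 0% (neonatal) and 1.51% (adult), and with equal list lengths 0% (adult). The share of neonatal H3K4me3 islands kept in the adult was 69.4% at 50% overlap and turned to 16.7% under MACS. The neonatal-higher share of stage rows at least 4-fold apart was 100% for H3K4me3 (1 row) and 0% for H3K27me3 (15 rows). It was 0% with an island in the higher stage for H3K79me2 (6 rows) and H3K9me3 (2 rows). With both libraries above the floor it was 0% for H3K79me2 (1 row), 50% for H3K27me3 (4 rows) and 0% for H3K9me3 (3 rows), which leaves too few rows for a direction. Centring on the table median (-2.91 on the log2 scale) gave 41.2% for H3K27me3. At 4-fold, the mES-higher share against the adult was 33.3% for H3K4me3 (3 rows, turned from 55.2%) and 0% for H3K79me2, and against the neonatal 0% for H3K79me2 (1 row). The cause was not tested, beyond the fewer rows that the stricter settings leave.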
